A study of Danio rerio with 36 samples.

Results

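The genes lama1, lama5, lamb1a, lamc1, frem2a, frem3 and fras1 encode laminin chains and Fras/Frem proteins of the basement membrane. They were chosen by name, with earlier results of these data known. All 7 were found among the 14781 gene symbols counted in each of 18 RNA-seq libraries of zebrafish caudal fins and of fin fibroblasts. The study set regenerating fins against uninjured fins, with time given in days post amputation (dpa), to find enhancers that act during regeneration; its accessibility samples were not analysed here.

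The first batch held 2 whole-fin libraries at 4 dpa and 2 uninjured ones at 0 dpa. The second batch held 3 whole-fin libraries labelled 1 dpa and 3 labelled 0 dpa. The third batch held 2 libraries of fibroblasts at 4 dpa and 2 at 0 dpa, and 1 library each of LEN-deletion whole fins at 2 dpa, LEN-deletion whole fins at 0 dpa, whole fins without the deletion at 2 dpa and such fins at 0 dpa. LEN is an enhancer linked to lepb, which encodes a leptin. The fish of whole-fin libraries were outbred Ekkwill (EK) animals of 3 or 4 to 12 months, pooled from 15 fish per library; the genotype label reads wild type in the first and second batches and for the fibroblasts, and is not filled in for the 4 single whole-fin libraries. The 2 single libraries without the deletion are called wild type here after the deposited names. Fibroblast libraries pooled 75 fish, also of 3 or 4 to 12 months. The labels tie them to the promoter of tph1b, a gene of fin ray fibroblasts, but name both tph1b:creER;ubi:switch and tph1b:mCherry-NTR;ubi:switch animals. The creER fins were clipped and bathed in 4 µM tamoxifen for 12 hours at 2 dpa, then regrew for 2 months before use; which line gave the libraries, and so whether the 0 dpa fibroblasts came from fins that had regenerated before, is left unsettled by these labels. Because whole fins were pooled, nothing in a library separates individual fish. In groups with replicates, p-values measure the spread between pools, which may be technical. The 4 single whole-fin libraries have no replicates. Tests among them rest on their departure from a model that adds time and genotype, not on a spread between pools of a condition.

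Basement membranes are thin sheets of matrix between an epithelium and the tissue beneath it. Laminins are trimers of 1 alpha, 1 beta and 1 gamma chain that polymerise into the sheet and bind integrins and dystroglycan on cells. Fras1 and the Frem proteins form a complex in the lower part of the sheet that anchors embryonic epidermis to mesenchyme; zebrafish embryos mutant for fras1 (pinfin) or frem2a (blasen), or for lama5, have blistered or misshapen fin folds. In fin regeneration a wound epidermis covers the stump and faces the blastema, the mass of proliferating cells from which the fin regrows.

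Libraries held 19427984 to 43871436 gene counts, and levels are given as CPM, gene counts scaled to a common library total with TMM factors of all 18 libraries. A level says how one gene varied between libraries; levels of different genes are not set against each other, because transcript lengths were not used here. Calls are from edgeR's quasi-likelihood F test at a Benjamini-Hochberg adjusted p under 0.05 over all genes tested. Errors are standard errors (SE) of a log2 fold change unless given as SD. Each SE was derived from the test, as the size of the log2 fold change over the square root of its F statistic. All 7 genes passed the expression filter in all 8 comparisons. In the second batch the data stood against the labels. The injury gene lepb had 0 to 0.0308 CPM in the libraries labelled 1 dpa and 31.4 to 44.5 CPM in those labelled 0 dpa, and tnc, which encodes the matrix protein tenascin C, had 15.0 to 17.5 CPM and 854 to 1020 CPM in these groups. The deposited names give these groups the opposite condition, so these libraries are called by their labels throughout. The fibroblast label was checked against its markers. The summed level of 8 of them was 17673 to 28288 CPM in fibroblasts and 1948 to 12463 CPM in whole fins of the first batch. The summed level of 7 basal epidermal markers was 3486 to 32243 CPM and 40087 to 167258 CPM in these groups. None of these 15 markers was at 0 in either kind of library. Osteoblast markers were also enriched in fibroblasts at 0 dpa, with 7 of 8 called higher than in whole fins of the first batch and 1 lower. They summed to 2192 to 2370 CPM in these fibroblasts and 491 to 620 CPM in these fins. At 4 dpa 1 was higher and 5 were lower, with sums of 1862 to 2478 CPM and 13861 to 15800 CPM. The injury genes differed on the time label of the fibroblasts. The tnc level was 599 and 839 CPM in fibroblasts at 4 dpa, against 36.4 and 37.5 CPM at 0 dpa (log2 fold change 4.37, edgeR adjusted p = 8.65e-07). The lepb level did not separate the times: it was 240 and 218 CPM in fibroblasts at 4 dpa, against 176 and 267 CPM at 0 dpa (log2 fold change 0.15, edgeR adjusted p = 0.581), and at 0 dpa it was 704-fold higher in fibroblasts than in whole fins of the first batch (edgeR adjusted p = 6.19e-06).

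All 7 genes rose in whole fins at 4 dpa, where 65.5% of 11912 tested genes were called, 32.5% higher and 33.0% lower. With library sizes alone in place of TMM, the share of higher calls among all calls was 72.7% in place of 49.7%. The increases spanned a wide range, with frem3 and frem2a 77.2-fold and 64.4-fold higher, lama1 26.0-fold and lamb1a 8.15-fold higher, lamc1 2.95-fold and fras1 2.04-fold higher, and lama5 1.68-fold higher. Without 0 dpa replicate 1 the frem3 increase was 121-fold. The median log2 fold change of the 7 genes was 3.03, against -0.01 over all genes tested. The 4 dpa libraries lay above both 0 dpa libraries for all 7 genes; groups of libraries did not overlap for 83.9% of tested genes, 46.3% being higher and 37.6% lower. In pooled tissue, fewer cells of a type and less RNA per cell cannot be told apart, and the tissue makeup moved with time: fibroblast markers summed to 10458 to 12463 CPM at 4 dpa and 1948 to 2086 CPM at 0 dpa, and basal epidermal markers to 40087 to 43961 CPM and 131784 to 167258 CPM. Osteoblast markers summed to 13861 to 15800 CPM at 4 dpa and 491 to 620 CPM at 0 dpa, with 6 of 8 called higher and 1 lower. Their median log2 fold change was 1.55, so the sum moved more than the typical marker. Endothelial markers summed to 189 to 216 CPM and 73.2 to 82.5 CPM, with 7 of 7 higher. Leukocyte markers summed to 1044 to 1064 CPM and 2823 to 3858 CPM, with 2 of 8 higher and 4 lower. The part of these shifts in the increases was not tested.

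Among the laminin alpha chains, lama1 encodes the alpha 1 chain, typical of embryonic basement membranes, and lama5 the alpha 5 chain, broadly found under epithelia. The lama1 level was 132 and 135 CPM at 4 dpa, against 4.18 and 5.32 CPM at 0 dpa. Its log2 fold change was 4.70 (SE 0.156, edgeR adjusted p = 1.88e-07). The lama5 level was 237 and 276 CPM at 4 dpa, against 125 and 158 CPM at 0 dpa. Both alpha chains were higher in both 4 dpa libraries, but lama5 moved far less, by 0.75 on the log2 scale (SE 0.154, edgeR adjusted p = 0.00209). The ratio of lama1 to lama5 counts was 0.557 and 0.489 at 4 dpa and 0.0334 and 0.0336 at 0 dpa. The balance between these chains therefore differed 15.6-fold between the groups without overlap, where 83.9% of single tested genes did not overlap either. An exact two-sided permutation test gave p = 0.333, below which it cannot go with 2 libraries a group.

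The beta and gamma chains lamb1a (the zebrafish mutant gene grumpy) and lamc1 (sleepy) are components of most laminin trimers. The lamb1a level was 470 and 478 CPM at 4 dpa, against 51.2 and 56.8 CPM at 0 dpa, a log2 fold change of 3.03 (SE 0.140, edgeR adjusted p = 3.71e-07). The lamc1 level was 481 and 456 CPM at 4 dpa, against 146 and 149 CPM at 0 dpa, a log2 fold change of 1.56 (SE 0.131, edgeR adjusted p = 8.69e-06). Replicates of both genes lay close together and the groups were far apart. The paralog lamb1b went the other way: it fell by 0.99 on the log2 scale (edgeR adjusted p = 0.000427), with 40.6 to 54.6 CPM at 4 dpa and 80.2 to 95.4 CPM at 0 dpa. The ratio of lamb1a to lamb1b counts averaged 10.1 at 4 dpa and 0.616 at 0 dpa as geometric means. How reads shared by such paralogs were counted is not given in the sources used here.

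In the Fras/Frem group, frem2a and frem3 encode large extracellular proteins of the Frem family and fras1 the founding member of the complex. The frem2a level was 272 and 312 CPM at 4 dpa, against 4.29 and 4.13 CPM at 0 dpa, a log2 fold change of 6.01 (SE 0.162, edgeR adjusted p = 1.11e-07). The frem3 level was 69.7 and 81.9 CPM at 4 dpa, against 1.27 and 0.591 CPM at 0 dpa, a log2 fold change of 6.27 (SE 0.255, edgeR adjusted p = 3.71e-07). Both transcripts were near the low end of detection in uninjured fins, with 13 to 91 reads per library, and plentiful at 4 dpa, with 2466 to 11591 reads. The fras1 level was 185 and 235 CPM at 4 dpa, against 94.3 and 96.4 CPM at 0 dpa, a log2 fold change of 1.03 (SE 0.144, edgeR adjusted p = 0.000195). The fras1 transcript was already well detected before injury, and both 4 dpa libraries lay above both 0 dpa libraries. On the GRCz12tu gene table frem3 overlaps hhip, and hhip fell by 1.15 on the log2 scale at 4 dpa (edgeR adjusted p = 6.13e-05); where the strand setting of counting is unknown, reads of such neighbours cannot be told apart. The same limit holds for lama1, which overlaps the coding gene LOC141380783 on that table, a gene not analysed here.

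**Figure D1:**
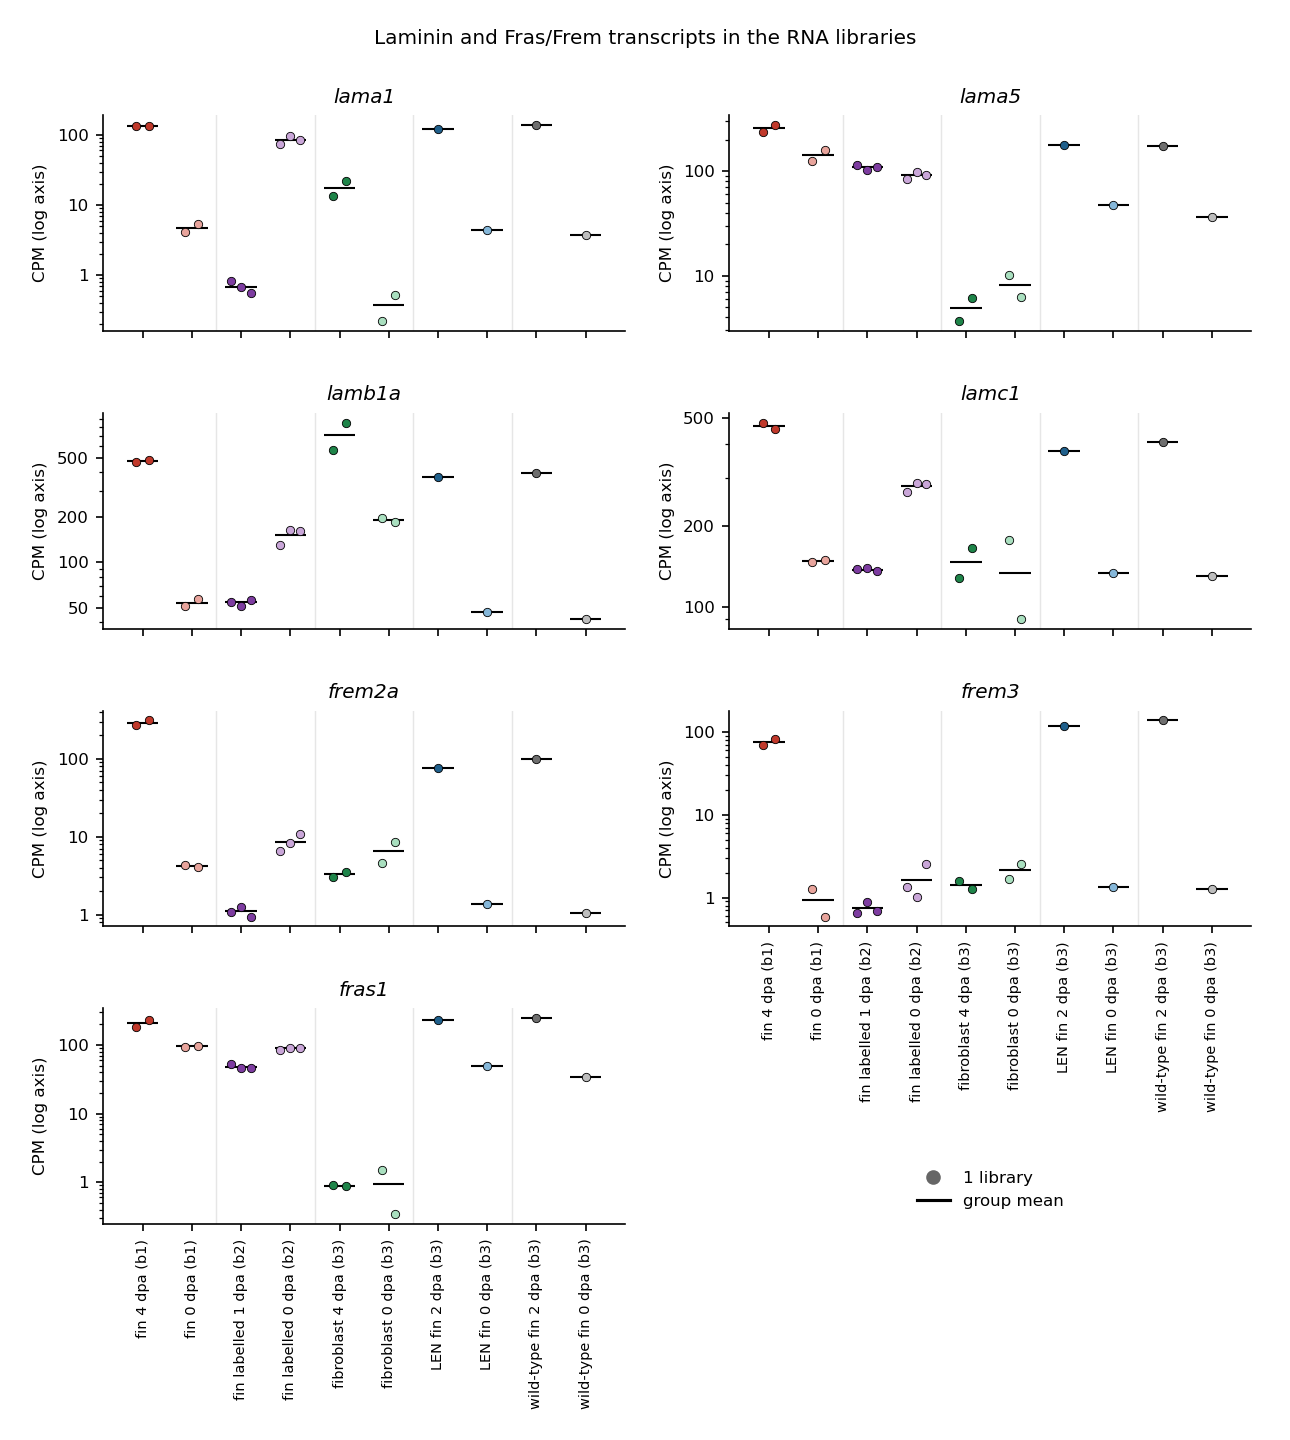
Level of each gene in each of the 18 RNA libraries (CPM, log axis), with points for libraries and lines for group means; b1, b2 and b3 stand for batches 1, 2 and 3. All 7 genes sit higher in the 4 dpa and 2 dpa fins than in the matching 0 dpa fins, while in fibroblasts lama5 and fras1 sit far below every whole-fin library.

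The order of levels over the groups showed where each gene stood. For lama1 the 2 dpa and 4 dpa whole fins came first at 121 to 138 CPM, then the fins labelled 0 dpa at 74.1 to 94.7 CPM, the 4 dpa fibroblasts at 13.4 to 22.0 CPM, the 0 dpa whole fins of batches 1 and 3 at 3.70 to 5.32 CPM, the fins labelled 1 dpa at 0.562 to 0.835 CPM and the 0 dpa fibroblasts at 0.223 and 0.529 CPM. The 0 dpa whole fins of the first batch overlapped a single 0 dpa library of the third batch, and the order within the leading 3 groups rests on 2 single libraries. For lamb1a the 4 dpa fibroblasts led at 566 and 854 CPM, above whole fins at 4 dpa, and the whole fins labelled 1 dpa overlapped the 0 dpa fins of the first batch. For lamc1 the lower 6 groups, from whole fins at 0 dpa to both kinds of fibroblast, lay between 90.1 and 177 CPM, and the neighbours in that order overlapped wherever a group had replicates. For frem2a and frem3 the 2 and 4 dpa whole fins stood alone at 69.7 CPM or more, and every other library was at 10.9 CPM or less. The wild-type and LEN-deletion 2 dpa libraries had more frem3 than the 4 dpa libraries, at 138 and 118 CPM, and less frem2a, at 98.9 and 75.4 CPM.

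In the whole fins of the second batch, 6 of the 7 genes were lower and 1 was higher in the libraries labelled 1 dpa, by their labels, where 81.9% of 11851 genes were called, 39.9% lower and 42.0% higher. The median log2 fold change was -1.08 for the 7 genes, against 0.06 over all genes. With the condition the deposited names give, these directions are the opposite ones. The lama1 level was 0.835, 0.678 and 0.562 CPM in libraries labelled 1 dpa, against 74.1, 94.7 and 85.3 CPM in those labelled 0 dpa. Its log2 fold change, labelled 1 over labelled 0 dpa, was -6.87 (SE 0.151, edgeR adjusted p = 3.14e-09), 117-fold lower. It rested on 19 to 26 reads per library labelled 1 dpa. Summed marker levels of other cells differed between these groups. Superficial epidermal markers summed to 8188 to 9210 CPM in libraries labelled 1 dpa and 48309 to 55462 CPM in those labelled 0 dpa. By the test only 1 of these 6 markers was lower and 0 were higher, with a median log2 fold change of 0.11. Leukocyte markers summed to 4813 to 5435 CPM and 468 to 658 CPM, with 6 of 8 higher and 1 lower. Basal epidermal markers summed to 113024 to 126216 CPM and 87177 to 92910 CPM, with 3 of 7 higher and 2 lower. Fibroblast markers summed to 2471 to 2936 CPM and 2851 to 3208 CPM, with 3 of 8 higher and 3 lower. The part of these markers in the differences was not tested.

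The other members moved less in that batch. The log2 fold change was -1.42 for lamb1a (SE 0.0902), with 51.5 to 56.6 CPM in libraries labelled 1 dpa and 131 to 163 CPM in those labelled 0 dpa. It was -0.96 for lamc1 (SE 0.0496), with 135 to 139 CPM and 266 to 287 CPM in these groups. It was -0.83 for fras1 (SE 0.0649), with 45.5 to 52.4 CPM and 85.4 to 91.5 CPM. Each of these 3 had an edgeR adjusted p of at most 2.60e-06, and the 6 libraries were separated in every case. The Frem genes were low in both groups: frem2a had 0.946 to 1.26 CPM in libraries labelled 1 dpa and 6.64 to 10.9 CPM in those labelled 0 dpa, a log2 fold change of -2.90 (SE 0.220, edgeR adjusted p = 2.27e-06). The frem3 level was 0.643 to 0.894 CPM and 1.01 to 2.55 CPM, a log2 fold change of -1.08 (SE 0.371, edgeR adjusted p = 0.0249). That frem3 call ended when labelled 0 dpa replicate 3 was left out (-0.60, adjusted p = 0.0683), and also without labelled 1 dpa replicate 1 (adjusted p = 0.0820) or replicate 3 (adjusted p = 0.0747). The lama5 level was 102 to 115 CPM in libraries labelled 1 dpa and 84.8 to 98.0 CPM in those labelled 0 dpa, higher by 0.32 on the log2 scale (SE 0.0684, edgeR adjusted p = 0.00207), a call lost in a fit of all replicated groups (0.26, adjusted p = 0.188). All 7 genes separated the groups, 6 lower and 1 higher, where 84.2% of all tested genes did so, 42.8% lower and 41.3% higher.

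The third batch added an early time in single libraries. In fins at 2 dpa against 0 dpa, all 7 genes were called higher in a model with genotype as a term, where 62.3% of 11873 genes were called, 31.2% higher and 31.1% lower. That model has 1 residual degree of freedom, so the counts of each genotype are given with exact 95% intervals of the ratio, which cover counting error only. For frem2a the ratio of 2 dpa to 0 dpa was 54.6-fold (40.6 to 75.4) in LEN-deletion fins and 94.4-fold (66.0 to 140) in wild-type fins. For frem3 it was 87.5-fold (64.9 to 121) in LEN-deletion fins and 110-fold (79.4 to 157) in wild-type fins. For lama1 it was 27.5-fold (23.2 to 32.8) in LEN-deletion fins and 37.2-fold (30.7 to 45.5) in wild-type fins. These were the largest ratios of the 7 genes in both genotypes, and they came from 30 to 140 reads per 0 dpa library. Cell-type markers moved beside them: fibroblast markers summed to 9094 and 9691 CPM at 2 dpa, against 3481 and 4066 CPM at 0 dpa, in the LEN-deletion and wild-type fins, basal epidermal markers to 57697 and 54924 CPM against 73106 and 89268 CPM, and leukocyte markers to 744 and 602 CPM against 3220 and 2161 CPM. Their part in the increases was not tested.

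The remaining genes changed less at 2 dpa. Their log2 fold changes in the model were 3.08 for lamb1a (SE 0.117), 1.55 for lamc1 (SE 0.104), 2.07 for lama5 (SE 0.123) and 2.52 for fras1 (SE 0.177), each with an edgeR adjusted p of at most 3.99e-05. Beside them stood the 4 dpa changes of the first batch, at 3.03, 1.56, 0.75 and 1.03 for the same genes; the batches share no libraries, and the difference between 2 and 4 dpa was not tested. The larger 2 dpa changes of lama5 and fras1 lay beside lower 0 dpa levels: lama5 had 47.2 and 36.2 CPM in the LEN-deletion and wild-type 0 dpa fins, below the 125 and 158 CPM of the first batch, and fras1 had 49.4 and 33.7 CPM, below 94.3 and 96.4 CPM.

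Deletion of LEN moved none of the 7 genes past the threshold. With time as a term, 48 of 11873 genes were called, 0.404%, with 0.219% higher and 0.185% lower, and 0 of 7 members were. The LEN-deletion effect ranged from -0.23 for frem2a (SE 0.165, edgeR adjusted p = 0.870) to 0.23 for fras1 (SE 0.168, edgeR adjusted p = 0.874). The lepb level was 0.245 CPM in the LEN-deletion library and 111 CPM in the wild-type library at 2 dpa. This gene was not among those tested in the fits of the single libraries. In the 2 dpa libraries alone, frem2a counts in LEN-deletion fins were 0.762-fold those of wild-type fins (exact 95% interval 0.723 to 0.803), and the other 6 genes stood at 0.853-fold to 1.01-fold. In the 0 dpa libraries alone all 7 ratios lay above 1, at 1.46-fold for fras1 (1.35 to 1.59), 1.30-fold for lama5 and 1.11-fold for lamb1a, all 3 with intervals above 1, and with intervals that include 1 for lama1 (1.19-fold), lamc1 (1.02-fold), frem2a (1.32-fold, 0.810 to 2.17) and frem3 (1.07-fold). With 1 library per genotype and time, such ratios compare those libraries and not the genotypes. No test of these 4 libraries can show that the genotypes are alike.

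**Figure D2:**
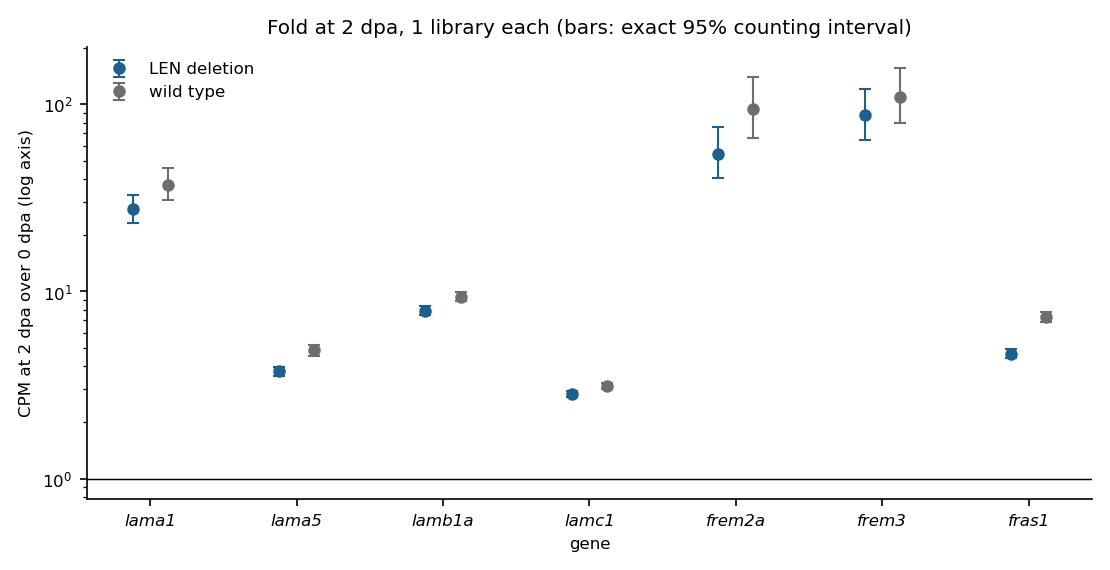
Ratio of the 2 dpa to the 0 dpa library for each gene in LEN-deletion and wild-type fins, on a log axis, with exact 95% intervals that cover counting error only. The ratios of frem2a and frem3 are the highest in both genotypes, and those of lamc1 the lowest, at 2.83-fold in LEN-deletion and 3.13-fold in wild-type fins.

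Fibroblasts gave another pattern. At 4 dpa, lama1 and lamb1a were higher in fibroblasts than at 0 dpa, frem2a was lower, and lama5, lamc1, frem3 and fras1 were not called. The background of that comparison was 53.9% of 12011 genes called, 27.8% higher and 26.2% lower, so 3 of 7 is not far from it. With library sizes alone the share of higher calls among all calls was 67.7% in place of 51.5%. The median log2 fold change of the 7 genes was 0.02, against 0.00 over all genes tested.

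The lama1 level in fibroblasts was 13.4 and 22.0 CPM at 4 dpa, against 0.223 and 0.529 CPM at 0 dpa. Its log2 fold change was 5.66 (SE 0.429, edgeR adjusted p = 2.16e-05), and the 0 dpa libraries held 8 and 17 reads; without 0 dpa replicate 2 it was 6.37. The lamb1a level was 566 and 854 CPM at 4 dpa, against 197 and 186 CPM at 0 dpa. Its log2 fold change was 1.98 (SE 0.200, edgeR adjusted p = 4.71e-05). Both laminin genes separated the groups without overlap. The lamc1 level did not: it was 128 and 165 CPM at 4 dpa, against 177 and 90.1 CPM at 0 dpa, with a log2 fold change of 0.22 (SE 0.343, edgeR adjusted p = 0.620). The lamc1 value turned on which 0 dpa library was kept: it was called without replicate 1 (0.76, adjusted p = 3.90e-05) and had the opposite sign without replicate 2 (-0.20, adjusted p = 0.305).

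Levels of lama5 and fras1 were low in fibroblasts at both times. The lama5 level was 3.68 and 6.07 CPM at 4 dpa, against 10.2 and 6.26 CPM at 0 dpa, with a log2 fold change of -0.67 (SE 0.327, edgeR adjusted p = 0.116); without 0 dpa replicate 2 it was called lower (-0.99, adjusted p = 9.38e-05). The fras1 level was 0.915 and 0.874 CPM at 4 dpa, against 1.53 and 0.343 CPM at 0 dpa, with a log2 fold change of 0.02 (SE 0.670, edgeR adjusted p = 0.983). These fras1 levels rest on 11 to 55 reads per library, and no response was detectable at that depth; without 0 dpa replicate 2 the value was -0.69 (adjusted p = 0.200). The sum of basal epidermal markers in the same libraries was 3661 and 3486 CPM at 4 dpa, against 32243 and 12187 CPM at 0 dpa, and 6 of 7 fell by the test. The 0 dpa library with the higher sum was also the one with more lama5, lamb1a, lamc1 and fras1, but with less lama1, frem2a and frem3. With 2 libraries, such an order cannot link a gene to the markers. The part of these markers in the levels was not tested.

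Neither frem2a nor frem3 was called higher in fibroblasts at 4 dpa. The frem2a level was 3.04 and 3.52 CPM at 4 dpa, against 4.56 and 8.69 CPM at 0 dpa in fibroblasts, a log2 fold change of -0.92 (SE 0.339, edgeR adjusted p = 0.0458). This call ended without 0 dpa replicate 2 (-0.40, adjusted p = 0.254), without 4 dpa replicate 1 (adjusted p = 0.256) or replicate 2 (adjusted p = 0.188), and with library sizes alone (-0.59, adjusted p = 0.161). The frem3 level was 1.58 and 1.27 CPM at 4 dpa, against 1.70 and 2.55 CPM at 0 dpa, with a log2 fold change of -0.47 (SE 0.402, edgeR adjusted p = 0.349). Groups did not overlap for 5 of the 7 genes in fibroblasts, 2 higher and 3 lower, where 79.3% of tested genes did not, 36.7% higher and 42.6% lower. Stress transcripts differed between these groups as well: 17 genes of heat shock and immediate early response summed to 26049 to 27631 CPM at 4 dpa and 119443 to 152993 CPM at 0 dpa, against 4337 to 9465 CPM in the whole fins of the first and second batches. The heat shock gene hsp70.1 alone had 7637 and 8530 CPM at 4 dpa and 44730 and 65483 CPM at 0 dpa. The part of this stress in the fibroblast results was not tested.

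The responses themselves were compared in a fit of the 4 groups, where 36.3% of 12442 genes had a called difference, 18.8% with a higher and 17.4% with a lower fibroblast response; with library sizes alone 38.9% of the calls were higher, in place of 52.0%. The fibroblast response was lower for 5 of the 7 genes and higher for 0, with a median of -1.30 against 0.07 over all genes. The difference, fibroblast minus whole fin, was -6.89 for frem2a (SE 0.391, edgeR adjusted p = 8.01e-06) and -6.70 for frem3 (SE 0.425, edgeR adjusted p = 6.76e-06) on the log2 scale. It was -1.01 for lamb1a (SE 0.258, edgeR adjusted p = 0.0111), which nevertheless was higher at 4 dpa in both tissues. It was -1.38 for lama5 (SE 0.390, edgeR adjusted p = 0.0250) and -1.30 for lamc1 (SE 0.385, edgeR adjusted p = 0.0291). For lama1 it was 0.99 (SE 0.479, edgeR adjusted p = 0.137), and the fras1 response was 1.99-fold smaller in fibroblasts (log2 SE 0.643, edgeR adjusted p = 0.273); neither was called. Tissue, batch and any cell sort are the same split here and cannot be told apart. The lamc1 difference lost its call without any 1 of 6 of the 8 libraries, all but the fibroblast 0 dpa ones (adjusted p 0.0503 to 0.106). The lama5 difference lost it without whole-fin 0 dpa replicate 1 (adjusted p = 0.0880), whole-fin 4 dpa replicate 2 (adjusted p = 0.0785) or fibroblast 4 dpa replicate 1 (adjusted p = 0.0761). The fras1 difference was called without fibroblast 0 dpa replicate 2 (-1.85, adjusted p = 0.000318) and had the opposite sign without fibroblast 0 dpa replicate 1 (0.28, adjusted p = 0.652). Without whole-fin 0 dpa replicate 1 the frem3 difference was -7.31, and without fibroblast 0 dpa replicate 1 the frem2a difference was -7.48.

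**Figure D3:**
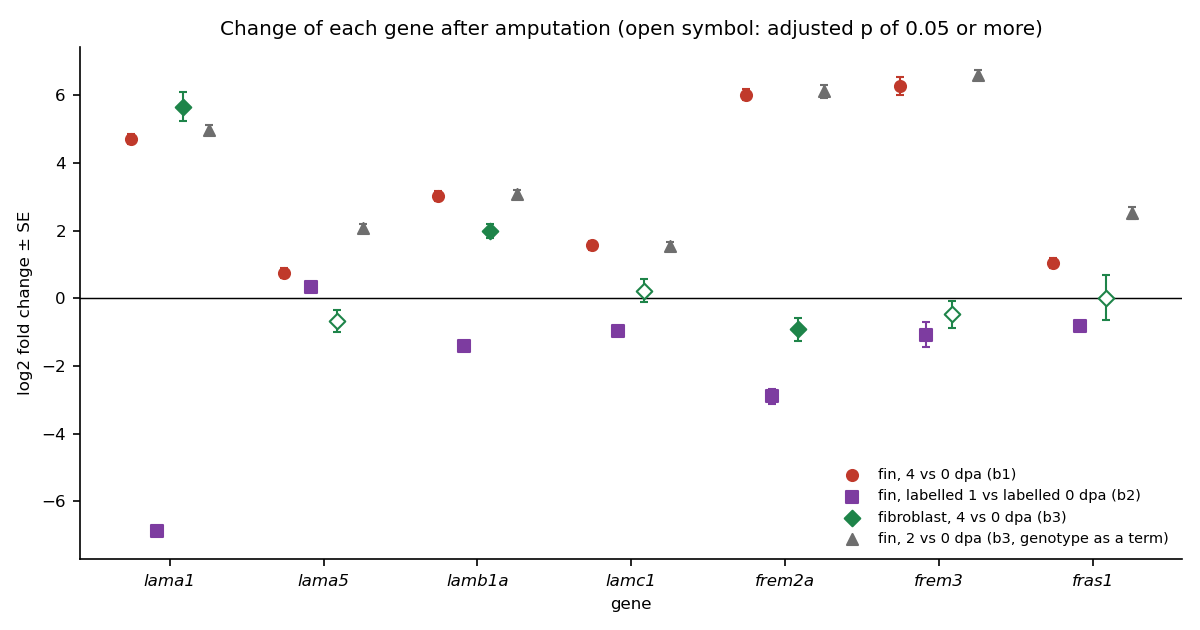
Log2 fold change of each gene with its SE in 4 comparisons: whole fin 4 over 0 dpa, whole fin labelled 1 over labelled 0 dpa, fibroblast 4 over 0 dpa and whole fin 2 over 0 dpa. In whole fins frem2a and frem3 reach 6.01 and 6.27 at 4 dpa, and in fibroblasts -0.92 and -0.47.

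Levels in fibroblasts and in first-batch whole fins were compared at each time point. In these comparisons tissue, batch and any cell sort are the same split. The third batch also held 2 single 0 dpa whole-fin libraries (LEN deletion, wild type), outside these tests. For lama5 they had 47.2 and 36.2 CPM, against 10.2 and 6.26 CPM in 0 dpa fibroblasts. The fras1 levels were 49.4 and 33.7 CPM against 1.53 and 0.343 CPM, and those of lama1 4.39 and 3.70 CPM against 0.223 and 0.529 CPM. For frem2a they were 1.38 and 1.05 CPM against 4.56 and 8.69 CPM, and for lamb1a 46.9 and 42.1 CPM against 197 and 186 CPM. These gaps were not tested. At 0 dpa, 65.6% of 12014 genes were called, 33.1% higher and 32.5% lower in fibroblasts; lamb1a was higher by 1.75 (SE 0.171, edgeR adjusted p = 5.67e-05), and fras1, lama5 and lama1 were lower, while lamc1 (-0.22), frem2a (0.58) and frem3 (1.13) were not called. The fras1 level was 105-fold lower in 0 dpa fibroblasts than in 0 dpa whole fins (edgeR adjusted p = 0.000218), lama5 18.1-fold lower (edgeR adjusted p = 1.70e-05) and lama1 13.3-fold lower (edgeR adjusted p = 0.000223). The size of 2 of these gaps rested on single libraries: fras1 was 289-fold lower without fibroblast 0 dpa replicate 1 and 65.7-fold lower without replicate 2, and lama1 was 22.1-fold lower without replicate 2. At 4 dpa, 75.4% of 12057 genes were called, 36.8% higher and 38.5% lower; 6 members were lower in fibroblasts and lamb1a was higher. The 4 dpa gap was 230-fold for fras1 (log2 -7.85, SE 0.191), 87.6-fold for frem2a (log2 -6.45, SE 0.154), 52.1-fold for frem3 (log2 -5.70, SE 0.168) and 51.8-fold for lama5 (log2 -5.70, SE 0.230), each with an edgeR adjusted p of at most 5.30e-08. For lama1 it was 7.44-fold and for lamc1 3.15-fold. The exception was lamb1a at 0.61 (SE 0.170, edgeR adjusted p = 0.00899), a call that ended without fibroblast 4 dpa replicate 2 (0.28, adjusted p = 0.0513). Calls at 0 dpa also rested on single libraries: without fibroblast 0 dpa replicate 1, frem2a (0.97), frem3 (1.40) and lamc1 (-0.78) were called too, with adjusted p of 0.00246, 0.00643 and 0.00165, whereas without replicate 2 the lamc1 value had the opposite sign (0.19, adjusted p = 0.426).

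**Figure D4:**
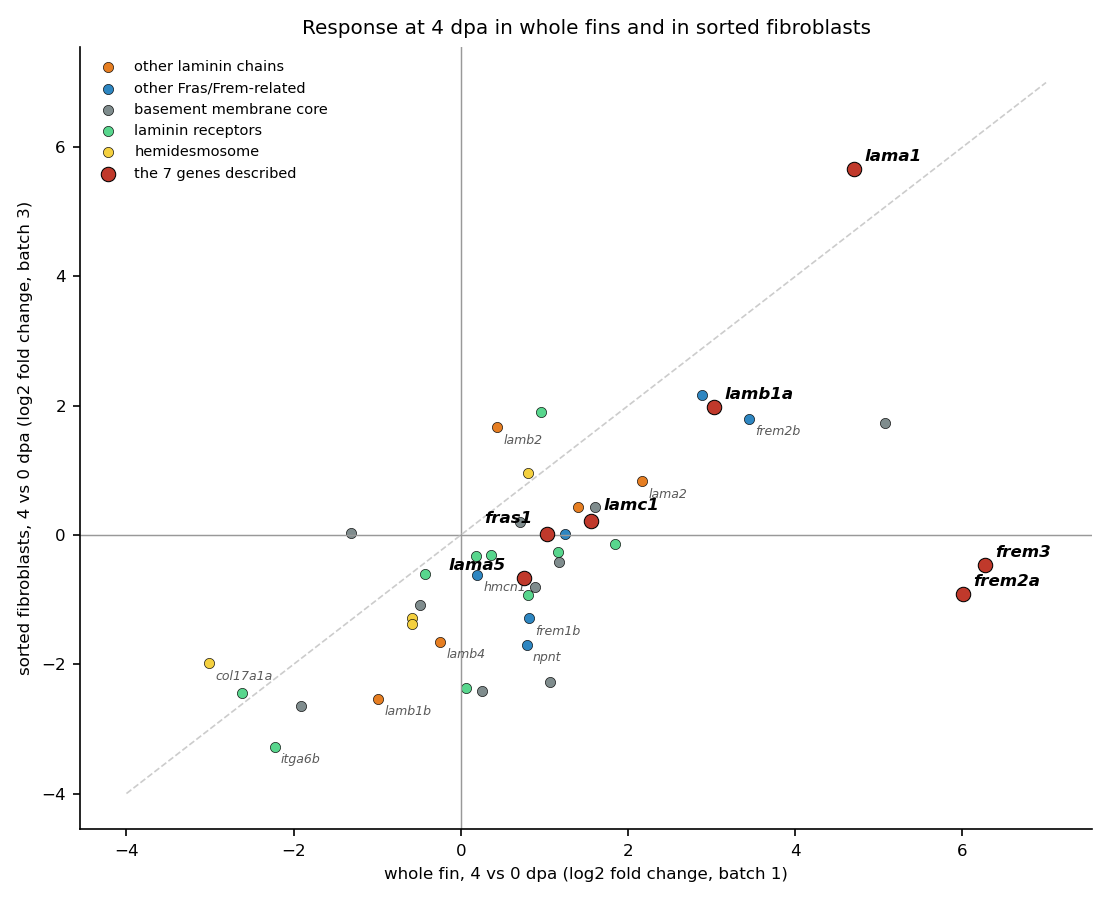
Log2 fold change at 4 over 0 dpa in fibroblasts (vertical) against whole fins (horizontal) for the 7 genes and for measured genes of 5 basement membrane lists; the dashed line marks equal responses. The points of frem2a and frem3 lie far right of the line, near 0 on the fibroblast axis, and lama1 lies high on both axes.

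Ratios of related genes within a library were also compared. The lama1 to lama5 count ratio in fibroblasts was 3.63 at both 4 dpa libraries, against 0.0218 and 0.0846 at 0 dpa, and in the second batch it averaged 0.00626 in libraries labelled 1 dpa and 0.922 in those labelled 0 dpa. The lamb1a to lamb1b ratio averaged 12.4 at 4 dpa and 0.560 at 0 dpa in fibroblasts, and 0.378 in libraries labelled 1 dpa and 8.61 in those labelled 0 dpa. In both tissues, then, lamb1a counts per lamb1b count were higher at 4 dpa. The frem2a to frem2b ratio did not keep a direction: it averaged 0.429 at 4 dpa and 0.0727 at 0 dpa in whole fins, but 0.451 and 2.91 in fibroblasts. The 0 dpa fibroblast libraries differed, at 1.61 and 5.26, and rested on 102 and 53 frem2b reads. These are geometric means of ratios within libraries, which need no scaling between libraries. All groups were separated, and the exact permutation test then gives its smallest possible p, 0.333 for 2 against 2 and 0.100 for 3 against 3 libraries. Levels of single genes did not overlap for 83.9% of tested genes in first-batch whole fins, 84.2% in the second batch and 79.3% in fibroblasts. The share for ratios of other gene pairs was not computed. A ratio above 1 does not say that one gene has more molecules, since lengths differ.

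**Figure D5:**
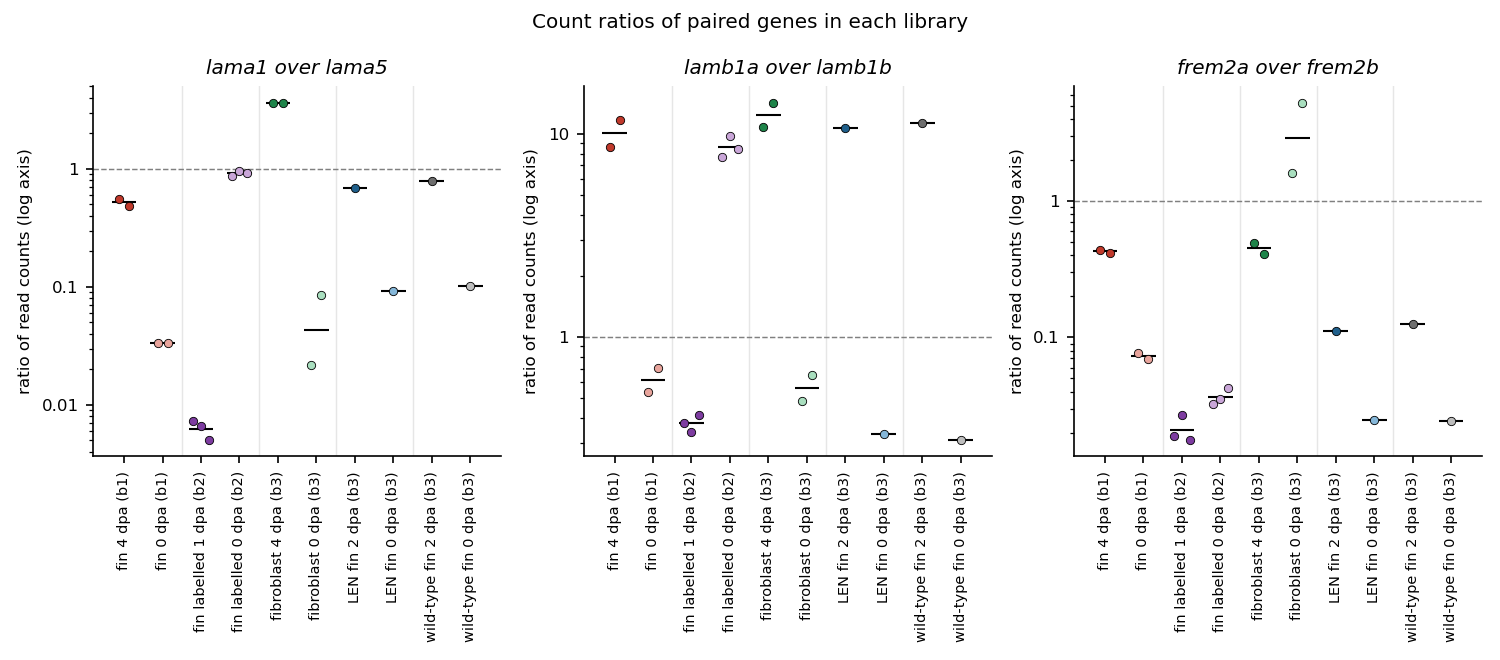
Ratio of read counts of lama1 over lama5, lamb1a over lamb1b and frem2a over frem2b in each library (log axis, dashed line at 1, short lines for geometric means). The lamb1a over lamb1b ratio is 8.61 to 14.2 in the 4 dpa libraries of both tissues and 0.482 to 0.708 in their 0 dpa libraries.

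Among the other laminin chains 5 of 10 listed genes were counted. In whole fins at 4 dpa, lama2 (alpha 2 chain, prominent in muscle and nerve) rose by 2.17 and lama4 (alpha 4 chain, of vessels and mesenchyme) by 1.41 on the log2 scale, lamb1b fell, and lamb2 (0.43) and lamb4 (-0.25) were not called. The median over these 5 was 0.43, and in fibroblasts also 0.43. In the difference of responses, lamb2 was higher in fibroblasts (1.27) and the other 4 were lower. In the libraries labelled 1 dpa all 5 were higher than in those labelled 0 dpa by their labels, by 1.29 to 3.09. At 2 dpa none was called higher and 4 of 5 were called lower, lamb1b by 2.01 and lama2 by 1.11 among them. The 2 to 0 dpa ratio of lama4 was 1.07-fold (1.02 to 1.13) in LEN-deletion fins and 1.19-fold (1.14 to 1.26) in wild-type fins. These exact 95% intervals cover counting error only. Thus lama2 was higher at 4 dpa in the first batch and lower at 2 dpa in the third, whereas the laminin chains lama1, lamb1a and lamc1 were higher at both. In fibroblasts at 4 dpa, lamb2 (1.66) and lama2 (0.83) rose, lamb1b (-2.53) and lamb4 (-1.65) fell and lama4 (0.43) was not called.

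The list of other genes related to the Fras/Frem complex includes frem2b, the paralog of frem2a, and frem1a (the mutant gene rafels). It also holds the scaffold genes grip1 and grip2a that help carry the complex to the membrane in mice. Further genes on it are hmcn1 (hemicentin) and npnt (nephronectin), a ligand of integrins. In whole fins at 4 dpa 6 of 7 rose, frem2b by 3.45 and frem1a by 2.89 on the log2 scale, and hmcn1 (0.20) was not called. The median over the 7 was 1.23 in whole fins, and over the 6 tested in fibroblasts -0.30. The frem2b level was 618 and 746 CPM at 4 dpa and 56.2 and 59.6 CPM at 0 dpa. In fibroblasts at 4 dpa frem1a (2.16) and frem2b (1.80) rose, frem1b (-1.29) and npnt (-1.70) fell, and 2 of the 6 tested were not called. The frem2b response was lower in fibroblasts than in whole fins by 1.62 (edgeR adjusted p = 0.00348). At 2 dpa 4 of 7 rose and frem1b fell. In the libraries labelled 1 dpa, by their labels, frem2b was lower by 2.08 and the other 5 tested were higher.

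The core genes of the sheet that were found gave a mixed picture. Of 24 listed, 13 were not found by symbol, among them col4a1, col4a2 and hspg2. In whole fins at 4 dpa 6 of 10 tested genes rose and 3 fell, among them sparc (1.61), which encodes a collagen-binding matrix protein, col4a5 (0.89), a type IV collagen chain, ntn4 (-1.91), a laminin-related netrin, and col18a1 (1.17). Of laminin receptors 5 of 10 rose and 3 fell: itgb1a (1.84), an integrin chain, and sgcd (1.16), a sarcoglycan, rose, and itgb4 (-2.62) and itga6b (-2.23), the integrin chains of hemidesmosomes, fell. Of 4 hemidesmosome genes 1 rose, cd151l (0.81), and 3 fell, col17a1a by 3.01 on the log2 scale. In fibroblasts at 4 dpa 0 of 10 core genes rose and 4 fell, 0 of 10 receptors rose and 5 fell, and 1 of 4 hemidesmosome genes rose and 2 fell. The medians in whole fins at 4 dpa were 0.80 for core genes, 0.27 for receptors and -0.58 for hemidesmosome genes, and in fibroblasts -0.61, -0.46 and -1.33. None of the 5 lists had a called gene between LEN-deletion and wild-type fins. Background shares for these counts are those given with each comparison above.

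Across the 18 libraries, the genes most like each member in log2(CPM + 1) differed from gene to gene, among 8328 candidates with a mean of at least 5 CPM. The likest were dnmt3bb.3, haus3 and birc5a for lama1 (Pearson r 0.975 to 0.979), and mep1a.1, fras1 and kcnk6 for lama5 (0.966 to 0.973). For lamb1a they were plod3, mllt3 and dkk3b (0.975 to 0.986), and for lamc1 pip5k1ab, use1 and racgap1 (0.935 to 0.944). For frem2a they were frem3, gpr161 and p4ha1a (0.905 to 0.929), for frem3 frem2a, emilin1b and p4ha1a (0.882 to 0.929), and for fras1 col4a5, gstm.3 and nf2b (0.981 to 0.989). The members formed no single cluster over all libraries: r was 0.971 between lama5 and fras1 but -0.24 between lama5 and lamb1a. Within the 14 whole-fin libraries it ranged from 0.470 between lama1 and lama5 to 0.992 between lamb1a and lamc1. There it was 0.708 between lama5 and lamb1a and 0.818 between lama5 and fras1. Libraries of one group share pooled tissue, batch and time, so these values are descriptions with no test.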

How the data were processed

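The 7 genes and the gene lists were chosen with earlier results of these data known. Each file the authors deposited lists a gene symbol and its raw count for 1 library, closed by 5 summary entries, per the file headers. The kit was stranded, per the labels' protocols. Picard 1.91, SAMtools 1.5, MACS2, HTSeq 1.6.1, Bowtie2 2.2.5, TopHat2 2.1.1 and Trim Galore 0.4.1 and 0.6.4 appear, unordered, with the build danRer10, per the submitters' processing notes. Neither the annotation nor the strand setting is stated for the counting, which leaves reads of overlapping genes and of paralogs uncertain. Reads on no gene (26.5 to 39.0%) and ambiguous reads (0.246 to 0.645%) stayed out of library sizes and tests. Enzymatic dissociation is stated for RNA and accessibility samples alike, and sorting in the accessibility protocol alone.

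Counts were tested with edgeR 4.0.16 in R 4.3.3 (robust quasi-likelihood F test, two-sided, TMM scaling, its expression filter, Benjamini-Hochberg adjustment over all genes tested), after a check on simulated counts. Each comparison was fitted on its own libraries, the difference of responses on 4 groups. The alternatives were DESeq2 1.42.0 and its size factors, library sizes alone, no filter and a fit of all 14 replicated libraries. Others were dispersions from all 18 libraries, a replicate block and leaving out each replicate. The alternative with dispersions from all 18 libraries also fitted a mean per group, in place of the additive model of the single libraries, and weighed those libraries equally. Libraries of a group differed by more than sampling noise (chi-square per degree of freedom 14.9 to 126). Each was counted as a replicate, though such a spread may be technical and cannot show that libraries are independent. Genes named were the 7 members, all measured genes of the other laminin and Fras/Frem lists, up to 4 per other list and comparison with the smallest p, the 3 likest genes per member, lepb, tnc and hsp70.1; hhip was added for its overlap with frem3. Of 10, 9, 24, 16 and 11 listed genes, 5, 7, 11, 11 and 4 were found. A gene table of GRCz12tu gave names and neighbours only. Levels per coding length, sequences and promoter motifs were not analysed here.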

Additional observations from a re-analysis of the deposited data

Results flagged for a closer look

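The fibroblast and whole-fin responses to amputation differed by the test of the difference itself for 5 genes, fibroblast minus whole fin on the log2 scale: lama5 (-1.38), lamb1a (-1.01), lamc1 (-1.30), frem2a (-6.89) and frem3 (-6.70). Of 12442 tested genes, 36.3% had a called difference, 17.4% with a lower fibroblast response. The lamc1 and lama5 calls ended when certain single libraries were left out, and with a replicate block. Both Frem genes were the farthest apart, and tissue, batch and any cell sort cannot be told apart in that contrast.

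In the second batch, by its labels, 6 genes moved in the direction opposite to that of whole fins at 4 dpa in the first batch, with every library labelled 1 dpa below every library labelled 0 dpa: lama1 (-6.87), lamb1a (-1.42), lamc1 (-0.96), frem2a (-2.90), frem3 (-1.08) and fras1 (-0.83). Of 11851 tested genes, 84.2% did not overlap between these groups, 42.8% being lower. The frem3 call ended without labelled 0 dpa replicate 3, and also without labelled 1 dpa replicate 1 or replicate 3. The difference between the batches was not tested, and the deposited names give these libraries the opposite condition.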

How the results depend on the processing

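No called value changed sign. Uncalled values did: without fibroblast 0 dpa replicate 2, fibroblast lamc1 was -0.20 in place of 0.22, fibroblast fras1 -0.69 in place of 0.02 and lamc1 in fibroblasts over whole fins at 0 dpa 0.19 in place of -0.22; without fibroblast 4 dpa replicate 1, fibroblast fras1 was -0.03, and in the fit of all replicated groups -0.11; without fibroblast 0 dpa replicate 1, the fras1 difference of responses was 0.28, against a 1.99-fold smaller response with all libraries. For the LEN deletion, lamc1 was 0.01 in place of -0.03 with library sizes alone. With dispersions from all 18 libraries, in a fit of group means, lama1 was 0.03 in place of -0.03 and frem2a 0.00 in place of -0.23. That fit weighed the 0 and 2 dpa libraries equally. LEN-deletion over wild-type frem2a counts were 0.762-fold at 2 dpa and 1.32-fold at 0 dpa, and lama1 counts 0.877-fold and 1.19-fold. Both 0 dpa intervals include 1. In whole fins at 4 dpa all 7 genes were called higher under each alternative run, and at 2 dpa likewise. A fit of all replicated groups left 0 members higher in the second batch, 2 lower in fibroblasts at 4 dpa and 2 higher in fibroblasts than whole fins at 0 dpa. Library sizes alone left 0 members lower in fibroblasts. They also moved the median log2 fold change of all genes to 0.44 in place of -0.01 in whole fins at 4 dpa, to 0.32 in place of 0.00 in fibroblasts and to -0.11 in place of 0.07 in the difference of responses, and to 0.16 in place of 0.06 in the second batch; fibroblasts over whole fins gave -0.12 in place of -0.02 at 0 dpa and -0.16 in place of -0.03 at 4 dpa, so changes are relative to the scaling.

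For the LEN deletion, 7 genes were called with library sizes alone, 163 without a filter and 9 with dispersions from all 18 libraries; the cause was not tested. Leaving out 1 replicate at a time gave 3827 to 7525 called genes and 0 to 1 members lower in fibroblasts, 2971 to 5167 genes and 3 to 6 members lower in the difference of responses, 1 to 3 members higher in fibroblasts than whole fins at 0 dpa, and 0 to 1 at 4 dpa. The main fits of the single libraries used these libraries alone. Only the alternative with dispersions from all 18 libraries assumed that a lone library varied like the other groups.

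Same-numbered libraries correlated at 0.0188 in the first batch, -0.118 to 0.0793 in the second and 0.0793 in fibroblasts. Libraries with other numbers correlated at -0.136 to 0.216 in the second batch. With 2 libraries a group, all correlations share a single size and differ only in sign. They cannot decide whether the numbers pair libraries, and the main fits took the libraries as unpaired. A replicate block left 1 member higher (lama1) and 3 lower in the difference of responses. Low counts limit lama1, frem3 and fras1 in the fibroblast libraries.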
